A study of Mus musculus with 8 samples.

Results

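The genes described here are 40 genes of fatty acid and triglyceride metabolism, chosen by name for their roles in binding and activating fatty acids, in making and modifying them, in oxidizing them, and in storing and releasing them as triglyceride. Every probe set whose platform annotation names exactly 1 of these genes was taken, which gave 80 probe sets for 39 genes, out of 45037 probe sets for 18193 named genes. No probe set was matched to Acsl1, and its expression was not analysed here. Hippocampal RNA of male 3xTg-AD mice was compared between 4 arrays of the RA group, fed rosmarinic acid at 0.5% of the diet for 8 months, and 4 arrays of the control group, fed the same diet without it. All mice were 10 months old and all carry the same 3 transgenes, amyloid precursor protein Swe, tau P301L and presenilin 1 M146V, so the comparison holds no mouse without the disease model. The Methods name 4 mice of average weight per group but also mention pooled total RNA, so an array may or may not stand for 1 mouse. All p-values given here rest on the spread among arrays of a group, and part of that spread may be technical.

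Fatty acids in the brain are taken up or made on site, carried in the cell by fatty acid binding proteins, and joined to coenzyme A by acyl-CoA synthetases before any further use. The activated acids can be elongated and desaturated for membrane lipids, imported into mitochondria by the carnitine system for beta-oxidation, or esterified to glycerol for storage in lipid droplets. The adult brain oxidizes little fatty acid in neurons and more in astrocytes, and it also uses ketone bodies that the liver supplies.

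The values are log2 summaries made by the authors with FARMS, a factor analysis of the probes of a probe set. Where the probes share no signal, FARMS returns a nearly constant value, and such a value is no evidence of equal levels. The SD over the 8 arrays was above 0.01 in 3758 of all 45037 probe sets (8.34%), and only such probe sets are called varying here. Of all varying probe sets 73.1% were higher on average under RA (median log2 difference, RA minus control, 0.07), and the array medians lay at 5.833 to 5.835 in the RA group and at 5.829 to 5.831 in the control group. With the varying probe sets centred on their array median, the median difference over all of them was 0.02. Over those of the gene set it was then 0.07, in place of 0.12. The part of this lean in the results was not tested otherwise. Arrays correlated at 0.989 to 0.998 across all probe sets. Most of these were nearly constant, so such correlations hardly measure how well the arrays agree. Hippocampal neuron markers were present in all arrays, with means over 7 varying genes of 9.04 to 9.49 in the RA group and of 9.20 to 9.59 in the control group.

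Of the 80 probe sets of the gene set, 19 varied (23.8%), and they belong to 16 genes. The lowest SD among them was 0.0534 (Dgat2) and the highest SD among the other 61 was 0.00123 (an Scd2 probe set), so no probe set lay close to the limit. The 23 genes whose probe sets were all nearly constant are unmeasured here. They are Fabp3, Fabp5, Acsl3, Acsl5 and Acsl6 among the genes of binding and activation, Acacb, Elovl2, Elovl4, Elovl5 and Srebf1 among those of synthesis, Cpt1c, Cpt2, Acadm, Acadl, Acadvl, Hadha and Ppara among those of oxidation, and Dgat1, Gpam, Pnpla2, Lipe, Plin2 and Pparg among those of storage. Their number includes the master regulators of lipogenesis and of fatty acid oxidation, Srebf1 and Ppara, and most enzymes of the mitochondrial beta-oxidation spiral. Of the 16 genes with a varying probe set, 13 also had at least 1 nearly constant one, all but Fabp7, Fasn and Lpl. In 6 of these genes (Elovl1, Fads2, Acaa2, Hadhb, Oxct1 and Dgat2) a nearly constant probe set had the highest mean.

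**Figure D1:**
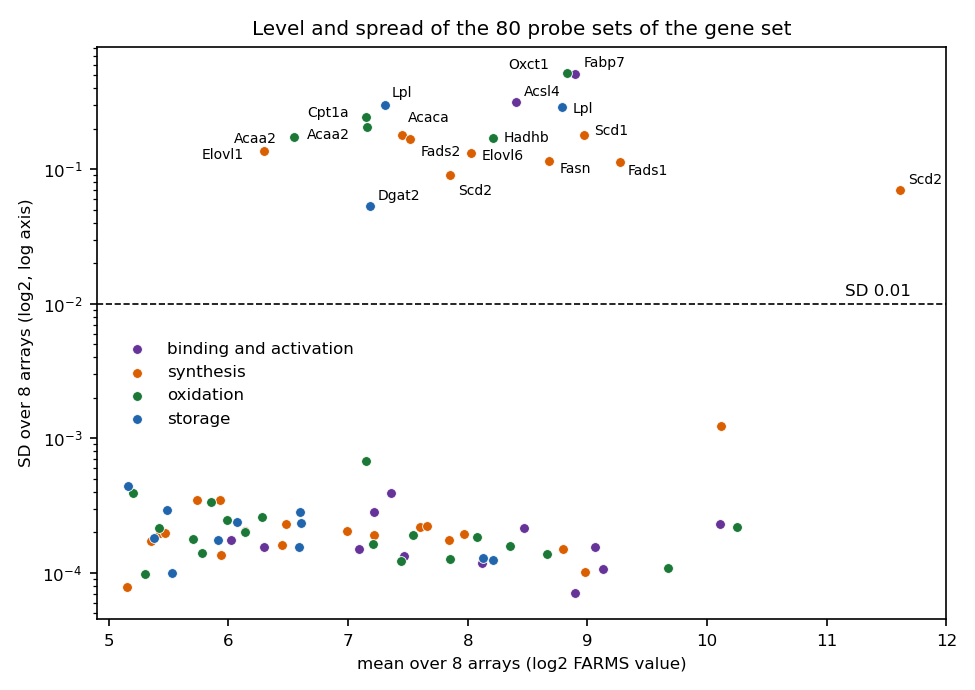
SD over the 8 arrays (log axis, log2 units) against the mean over the 8 arrays (log2 FARMS value) for the 80 probe sets, coloured by role. The 19 named points lie above the dashed line at an SD of 0.01, between 0.0534 and 0.519, and the other 61 lie at or below 0.00123.

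The rank product, the test used in the Methods, was run on the whole table. A probe set was called at an estimated false-positive proportion below 0.05. It orders probe sets by the size of their differences between single RA and control arrays, so it favours probe sets with a large spread, and its estimate is not a calibrated error rate on values of this kind. In the gene set, Fabp7, Scd1, Fads1 and Cpt1a were called higher in the RA group, and Acsl4, Oxct1 and Hadhb were called lower. These are 4 higher and 3 lower calls among 80 probe sets, or 5% and 3.75%, beside 0.904% and 0.575% of all probe sets. All calls fell on varying probe sets, and among the 19 varying ones the calls make up 21.1% and 15.8%, beside 10.8% and 6.89% of all varying probe sets. limma, which sets a difference against the spread of its probe set, called none of the 80 after Benjamini-Hochberg adjustment over the whole table (lowest adjusted p = 0.301, for Acsl4). At an unadjusted p under 0.05 limma gave 17 of the 80 probe sets, beside 10.1% of the whole table, but most of these 17 were nearly constant. It gave 5 of the 19 varying ones, beside 9.66% of all varying ones. Of these 5, 2 were higher in the RA group (Scd1 and Fads1), beside 5.3% of all varying probe sets, and 3 were lower (Acsl4, Oxct1 and Hadhb), beside 4.36%. The RA arrays lay wholly beyond the control arrays in 3 of the 19 (15.8%), beside 5.59% of all varying probe sets. They lay above in 2 (Scd1 and Fads1), beside 2.71%, and below in 1 (Acsl4), beside 2.87%. The median log2 difference of the 19 was 0.12, with 12 positive and 7 negative, and ran from -0.73 to 0.36.

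**Figure D2:**
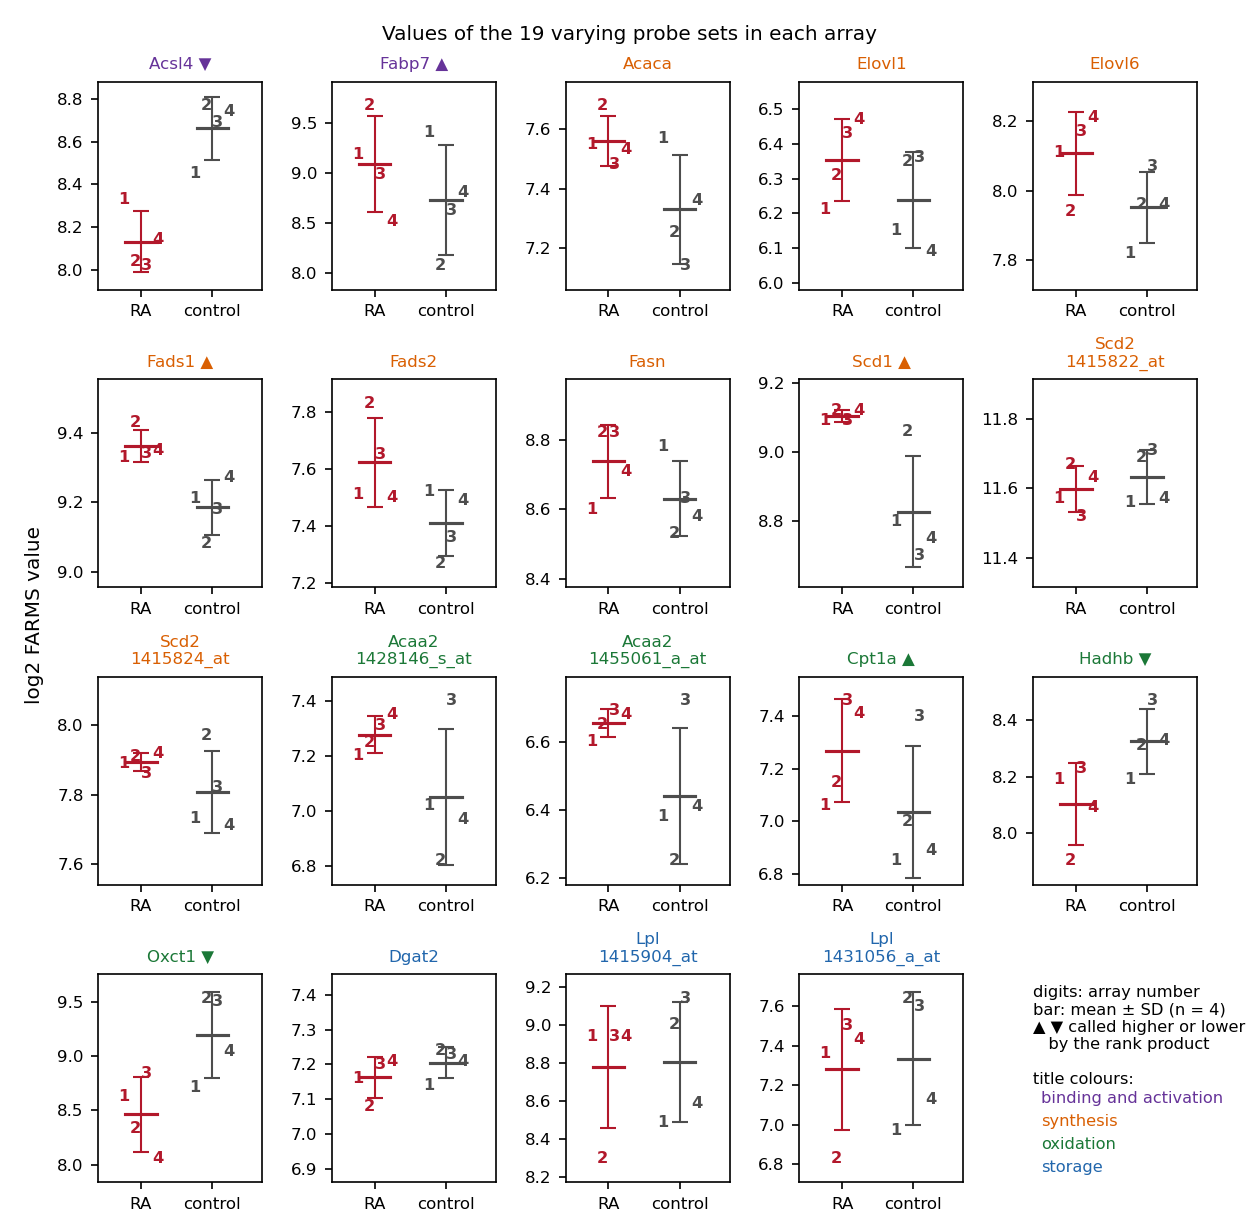
Values of the 19 varying probe sets in each array (log2 FARMS value), RA arrays left of control arrays, with digits for the array number and bars for the mean ± SD (n = 4). The groups are wholly apart in Acsl4, Scd1 and Fads1, while in Fabp7 the RA arrays reach from 8.51 to 9.67 and the control arrays from 8.07 to 9.40.

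Binding and activation gave 1 call in each direction. Acsl4, the acyl-CoA synthetase that prefers arachidonic acid, had log2 values of 8.33, 8.04, 8.02 and 8.14 in RA 1 to RA 4, against 8.45, 8.77, 8.69 and 8.74 in control 1 to control 4. Every RA array lay below every control array, though RA 1 and control 1 came close to each other. The mean was 8.13 ± 0.141 in the RA group and 8.66 ± 0.149 in the control group (SD, n = 4 each), a log2 difference of -0.53 (standard error 0.0984, adjusted p = 0.301 from limma), or 0.691 times the control level. When 1 array was left out, Acsl4 was called lower in 8 of 8 fits, with log2 differences of -0.61 to -0.50, but not when only the varying probe sets were tested. The other 2 probe sets of Acsl4 were nearly constant and give no measure of it. In tissue RNA, fewer cells of a type and less RNA per cell cannot be told apart, which holds for this and every later difference.

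Fabp7, the brain fatty acid binding protein of astrocytes and neural progenitors, is measured by 1 probe set. Its log2 values were 9.18, 9.67, 8.98 and 8.51 in RA 1 to RA 4, against 9.40, 8.07, 8.62 and 8.80 in control 1 to control 4. The groups overlapped widely, since RA 4 lay below control 1, control 3 and control 4. The mean was 9.08 ± 0.48 in the RA group and 8.72 ± 0.548 in the control group (SD, n = 4 each), a log2 difference of 0.36 (standard error 0.349, adjusted p = 0.757 from limma). The call was lost without control 2 or without any one of the RA arrays, and the log2 difference ran from 0.14 to 0.59 when 1 array was left out. Of 10 astrocyte marker genes, 9 varied. Their mean log2 value was 8.81, 8.83, 8.80 and 8.81 in RA 1 to RA 4. In control 1 to control 4 it was 8.64, 8.70, 8.61 and 8.80. Control 1, the highest control array in Fabp7, thus stood below control 2, the lowest in Fabp7. The rank product called 4 of the 15 varying astrocyte probe sets higher, beside 10.8% of all varying probe sets. Meningeal markers, of which 9 of 10 varied, had their highest mean in RA 2 (8.21, other arrays 7.00 to 7.57), the array with the highest Fabp7. The rank product called 11 of their 18 varying probe sets higher, beside the same 10.8%. The mean log2 difference was 0.12 for the astrocyte markers and 0.31 for the meningeal markers, and it was 0.14 each for microglia and endothelium markers. The part of any of these marker lists in the values of Fabp7 was not tested.

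Synthesis held the most varying probe sets, 9 of 28, and 8 of these 9 were higher on average under RA, beside 73.1% of all varying probe sets. Their median log2 difference was 0.16 and their range -0.03 to 0.27. Scd1, the stearoyl-CoA desaturase that makes monounsaturated fatty acids, had log2 values of 9.09, 9.12, 9.09 and 9.12 in RA 1 to RA 4, against 8.80, 9.06, 8.70 and 8.75 in control 1 to control 4. The RA arrays lay within a very small range, and control 2 came close to them from below. The mean was 9.10 ± 0.0189 in the RA group and 8.83 ± 0.161 in the control group (SD, n = 4 each), a log2 difference of 0.27 (standard error 0.0776, adjusted p = 0.375 from limma), or 1.21 times the control level. Fads1, the delta-5 desaturase of polyunsaturated fatty acid synthesis, had log2 values of 9.33, 9.43, 9.34 and 9.35 in RA 1 to RA 4, against 9.21, 9.08, 9.18 and 9.27 in control 1 to control 4. Here too the groups did not overlap, with a mean of 9.36 ± 0.048 in the RA group and of 9.18 ± 0.0783 in the control group (SD, n = 4 each). The log2 difference was 0.18 (standard error 0.044, adjusted p = 0.339 from limma).

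Without any one of the RA arrays neither Scd1 nor Fads1 was called, with estimated proportions of false positives of up to 0.117 and 0.15, while their log2 differences stayed at 0.23 to 0.35 and at 0.14 to 0.21 over all 8 fits that leave out 1 array. Fads1 also lost its call without control 2. In the whole table, the fits without 1 RA array called only 11 to 41 probe sets higher, in place of 407.

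Acaca, Fads2 and Fasn were not called with all arrays, and the rank product called them higher when control 1 was left out. That fit also called more probe sets higher in the whole table, 949 in place of 407. Acaca, acetyl-CoA carboxylase, which makes malonyl-CoA for fatty acid synthesis, had log2 values of 7.55, 7.68, 7.48 and 7.53 in RA 1 to RA 4, against 7.57, 7.25, 7.14 and 7.36 in control 1 to control 4. Fads2, the delta-6 desaturase, had log2 values of 7.51, 7.83, 7.65 and 7.50 in RA 1 to RA 4, against 7.52, 7.27, 7.36 and 7.49 in control 1 to control 4. In both genes control 1 stood among the RA arrays and the other control arrays stood below the RA group's lowest value. The log2 difference was 0.23 (standard error 0.0969) for Acaca and 0.21 (standard error 0.0915) for Fads2. The estimated proportion of false positives was 0.0554 and 0.0516, and without control 1 it was 0.0118 for Acaca and 0.0189 for Fads2, which were then called higher. Fasn, the fatty acid synthase, had log2 values of 8.60 to 8.82 in the RA group and of 8.53 to 8.78 in the control group, a log2 difference of 0.11 (standard error 0.0726), and was called without control 1 (0.0432). In all 3 genes control 1 was the highest control array, as it was in Fabp7.

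The elongases and Scd2 were not called. Elovl6, which lengthens palmitic acid, had log2 values of 7.94 to 8.21 in the RA group and of 7.82 to 8.07 in the control group, a log2 difference of 0.16 (standard error 0.0739). Elovl1, an elongase of very long chains, had log2 values of 6.21 to 6.47 in the RA group and of 6.09 to 6.36 in the control group (log2 difference 0.12, standard error 0.0884). Its varying probe set is of the x_at type, whose probes may also bind other transcripts. Scd2, the main stearoyl-CoA desaturase of brain, had a pair of varying probe sets that pointed in opposite directions. The one with a mean of 11.61 had a log2 difference of -0.03 (standard error 0.0493) and the other had one of 0.09 (standard error 0.0578). Whether Scd1 and Scd2 differ in their response was not tested.

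**Figure D3:**
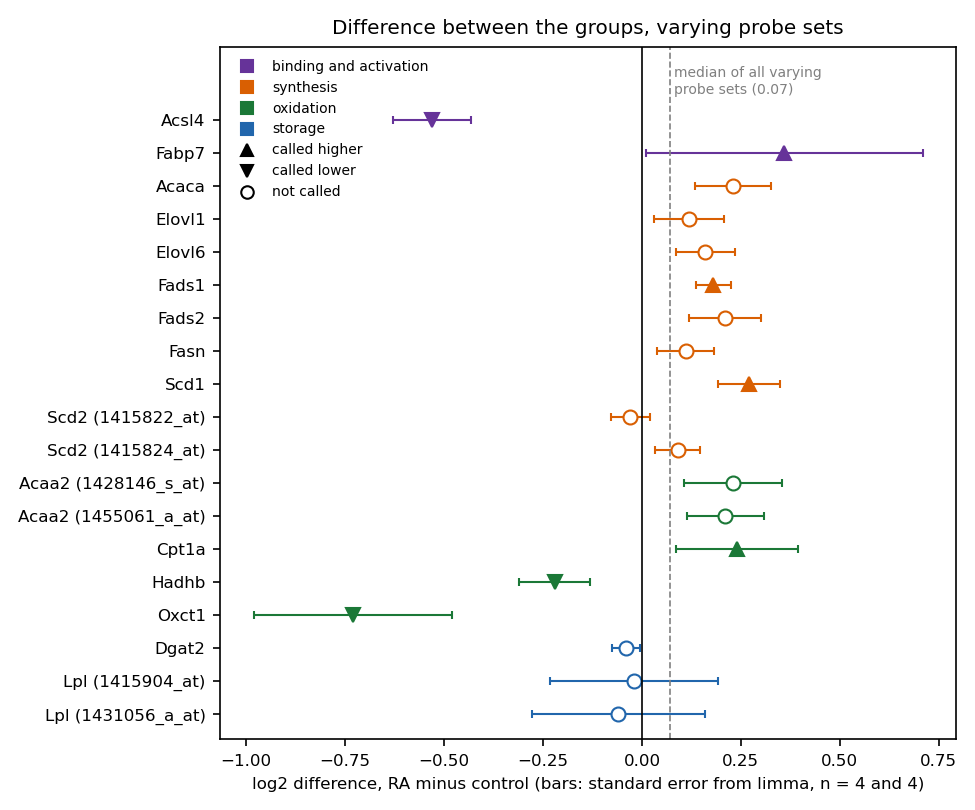
Log2 difference (RA minus control, n = 4 and 4) of the 19 varying probe sets with the standard error from limma, ordered by role, with filled triangles for rank product calls. The values run from -0.73 for Oxct1 to 0.36 for Fabp7, and the dashed line marks the median of all varying probe sets, 0.07.

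Genes of oxidation were called in both directions. Oxct1, the mitochondrial CoA transferase that lets cells use ketone bodies, had the largest difference of the 19 varying probe sets. Its varying probe set had log2 values of 8.63, 8.33, 8.84 and 8.06 in RA 1 to RA 4, against 8.71, 9.53, 9.50 and 9.04 in control 1 to control 4. The groups overlapped only through RA 3 and control 1. The mean was 8.46 ± 0.344 in the RA group and 9.20 ± 0.394 in the control group (SD, n = 4 each), a log2 difference of -0.73 (standard error 0.251, adjusted p = 0.432 from limma), or 0.603 times the control level. Oxct1 was called lower in 8 of 8 fits that leave out 1 array (-0.89 to -0.59) and also when only the varying probe sets were tested. The other 3 probe sets of Oxct1 were nearly constant, so the difference rests on 1 of 4 probe sets. Of the 15 varying probe sets of the hippocampal neuron markers, 3 were called lower and 0 higher by the rank product. Of all varying probe sets, 6.89% were called lower and 10.8% higher. The mean log2 value of these markers was 9.38, 9.04, 9.46 and 9.49 in RA 1 to RA 4, against 9.20, 9.59, 9.57 and 9.43 in control 1 to control 4. RA 2 and control 1 stood lowest, and the part of neuronal RNA in the values of Oxct1 was not tested.

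Hadhb, the beta subunit of the mitochondrial trifunctional protein of long-chain beta-oxidation, was called lower from a probe set of the x_at type, whose probes may also bind other transcripts. Its log2 values were 8.19, 7.90, 8.23 and 8.09 in RA 1 to RA 4, against 8.19, 8.31, 8.47 and 8.33 in control 1 to control 4. The groups overlapped through control 1, which lay at the level of RA 1 and below RA 3. The mean was 8.10 ± 0.148 in the RA group and 8.33 ± 0.115 in the control group (SD, n = 4 each), a log2 difference of -0.22 (standard error 0.0896, adjusted p = 0.485 from limma). The call was lost without control 2, control 3, control 4 or RA 2, with an estimated proportion of false positives of up to 0.17 and log2 differences of -0.27 to -0.16. The other 2 probe sets of Hadhb, and the 1 probe set of its partner subunit Hadha, were nearly constant.

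Hadha and Hadhb are neighbours that are read in opposite directions, and the promoter window of Hadhb is shown because most of it also belongs to Hadha. The windows are those of RefSeq on GRCm38.p6, each 300 bases long and spanning the start of the gene. Their starts lie 273 bases apart and 228 bases are shared by both windows, which are in capitals below. The window of Hadhb is chr5:30155003-30155302 on the plus strand, and that of Hadha is on the minus strand.
Hadhb: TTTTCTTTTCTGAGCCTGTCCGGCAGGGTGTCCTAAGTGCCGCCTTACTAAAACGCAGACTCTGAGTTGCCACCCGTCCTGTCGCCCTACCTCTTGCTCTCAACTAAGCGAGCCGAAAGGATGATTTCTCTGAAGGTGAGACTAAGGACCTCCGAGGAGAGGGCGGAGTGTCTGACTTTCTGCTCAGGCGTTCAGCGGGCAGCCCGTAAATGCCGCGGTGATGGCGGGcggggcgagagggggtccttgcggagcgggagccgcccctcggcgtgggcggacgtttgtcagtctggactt

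Cpt1a, the carnitine palmitoyltransferase that admits long-chain fatty acids to the mitochondrion, had log2 values of 7.06, 7.15, 7.46 and 7.41 in RA 1 to RA 4, against 6.85, 7.00, 7.40 and 6.89 in control 1 to control 4. RA 3, RA 4 and control 3 formed the upper set of values, and the range within each group was larger than the difference between the group means. The mean was 7.27 ± 0.195 in the RA group and 7.03 ± 0.253 in the control group (SD, n = 4 each), a log2 difference of 0.24 (standard error 0.153, adjusted p = 0.637 from limma). The call was lost without control 2, control 4 or any one of the RA arrays, with an estimated proportion of false positives of up to 0.156 and log2 differences of 0.17 to 0.36. Acaa2, a mitochondrial thiolase of beta-oxidation, had a pair of varying probe sets that pointed the same way, with log2 differences of 0.23 (standard error 0.123) and 0.21 (standard error 0.0974). In the one with the larger difference the log2 values were 7.20, 7.25, 7.31 and 7.35 in RA 1 to RA 4, against 7.02, 6.82, 7.40 and 6.97 in control 1 to control 4. Control 3 was the highest of all arrays and the other control arrays lay below all RA arrays. Without control 3 both probe sets were called higher (estimated proportion of false positives 0.00798 and 0.0104). With all arrays they were not called (0.0553 and 0.0666).

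Choroid plexus markers were high in some of the same arrays as Cpt1a and Acaa2. Of 12 such genes 11 varied, and their mean log2 value was 6.54, 5.66, 7.52 and 7.95 in RA 1 to RA 4, against 5.67, 5.71, 8.22 and 5.72 in control 1 to control 4. Control 3, RA 3 and RA 4 thus stood highest in this list as in Cpt1a. The rank product called 17 of the 17 varying probe sets higher, beside 10.8% of all varying probe sets. Of these 17, limma gave 0 at an unadjusted p under 0.05, and the groups overlapped in each probe set of the list. Ttr, its most abundant member, ranged from 7.67 to 13.26 in the RA group and from 8.54 to 13.39 in the control group. The part of choroid plexus RNA in the values of Cpt1a and Acaa2 was not tested.

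The promoter windows of Fabp7 and Cpt1a are shown because, of the called genes with a matched window (Acsl4, Fabp7, Cpt1a, Hadhb and Oxct1), these hold the letters CCAAT, the box that nuclear factor Y binds. The window of Fabp7 is chr10:57784673-57784972 on the plus strand and that of Cpt1a is chr19:3323051-3323350 on the plus strand, both on GRCm38.p6 as given by RefSeq, with CCAAT or its reverse complement ATTGG in capitals.
Fabp7: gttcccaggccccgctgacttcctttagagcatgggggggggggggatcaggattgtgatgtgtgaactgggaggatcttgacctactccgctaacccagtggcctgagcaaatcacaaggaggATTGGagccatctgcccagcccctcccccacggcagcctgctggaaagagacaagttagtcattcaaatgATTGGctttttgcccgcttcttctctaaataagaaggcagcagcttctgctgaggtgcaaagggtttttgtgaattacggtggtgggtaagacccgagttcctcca
Cpt1a: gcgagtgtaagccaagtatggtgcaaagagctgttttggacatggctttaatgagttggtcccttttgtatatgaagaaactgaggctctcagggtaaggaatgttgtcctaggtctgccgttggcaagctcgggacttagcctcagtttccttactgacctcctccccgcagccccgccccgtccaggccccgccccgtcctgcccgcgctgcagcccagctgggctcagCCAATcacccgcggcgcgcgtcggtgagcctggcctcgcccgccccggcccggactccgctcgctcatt

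RefSeq windows were matched for 32 of the 40 genes, and 1 window per gene was searched on both strands. Of the called genes, Scd1 and Fads1 were not among those searched. CCAAT was found in 14 of the 32 (43.8%), beside 37.9% of 27025 windows of all genes. The sterol response element TCACNCCAC, bound by the Srebf proteins, was found in 0 of the 32, beside 1.22% of all windows. The peroxisome proliferator response element, a direct repeat bound by dimers that hold Ppara or Pparg, was found in 0 of the 32, beside 0.0444% of all windows. A CCAAT on one strand overlapped one on the other strand in the window of Fasn, and the absence of a match says only that these letters are not in these windows.

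Storage and release gave no call. Of 14 probe sets 3 varied, and all 3 had log2 differences close to 0, between -0.06 and -0.02. Dgat2, which adds the last acyl chain of triglyceride, had log2 values of 7.08 to 7.21 in the RA group and of 7.14 to 7.24 in the control group (log2 difference -0.04, standard error 0.0358). Lpl, lipoprotein lipase, which frees fatty acids from circulating triglyceride and is also made by neurons and glia, had a large spread that did not follow the groups. In 1 of its varying probe sets the log2 values were 8.94, 8.30, 8.94 and 8.94 in RA 1 to RA 4, against 8.49, 9.00, 9.14 and 8.59 in control 1 to control 4. RA 2, control 1 and control 4 stood below the other arrays, and the second varying probe set gave the same 3 lowest arrays, with 6.83 in RA 2, 6.97 in control 1 and 7.13 in control 4. The log2 differences were -0.02 (standard error 0.213) and -0.06 (standard error 0.218), and both turned positive without control 2, control 3 or RA 2, with a largest value of 0.13.

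The same 3 arrays were lowest in the oligodendrocyte markers, of which 9 of 10 varied. The mean log2 value of these 9 genes was 9.27, 8.10, 9.11 and 9.46 in RA 1 to RA 4, against 8.27, 9.55, 9.42 and 8.62 in control 1 to control 4. Mbp, the most abundant of them, ranged from 11.58 to 12.70 in the RA group and from 11.90 to 12.93 in the control group. These low arrays were not particular to oligodendrocyte markers. The neuron marker Neurod6 had the same 3 lowest arrays, with 7.92 in RA 2, 8.24 in control 1 and 8.96 in control 4. The mean of the neuron markers was also lowest in RA 2 (9.04) and control 1 (9.20), but RA 1 (9.38) lay below control 4 (9.43). The part of oligodendrocyte or neuronal RNA in the values of Lpl was not tested. Of 8 adipocyte markers 1 varied, Adipor2, with log2 values of 7.64 to 7.94 in the RA group and of 7.58 to 7.94 in the control group.

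**Figure D4:**
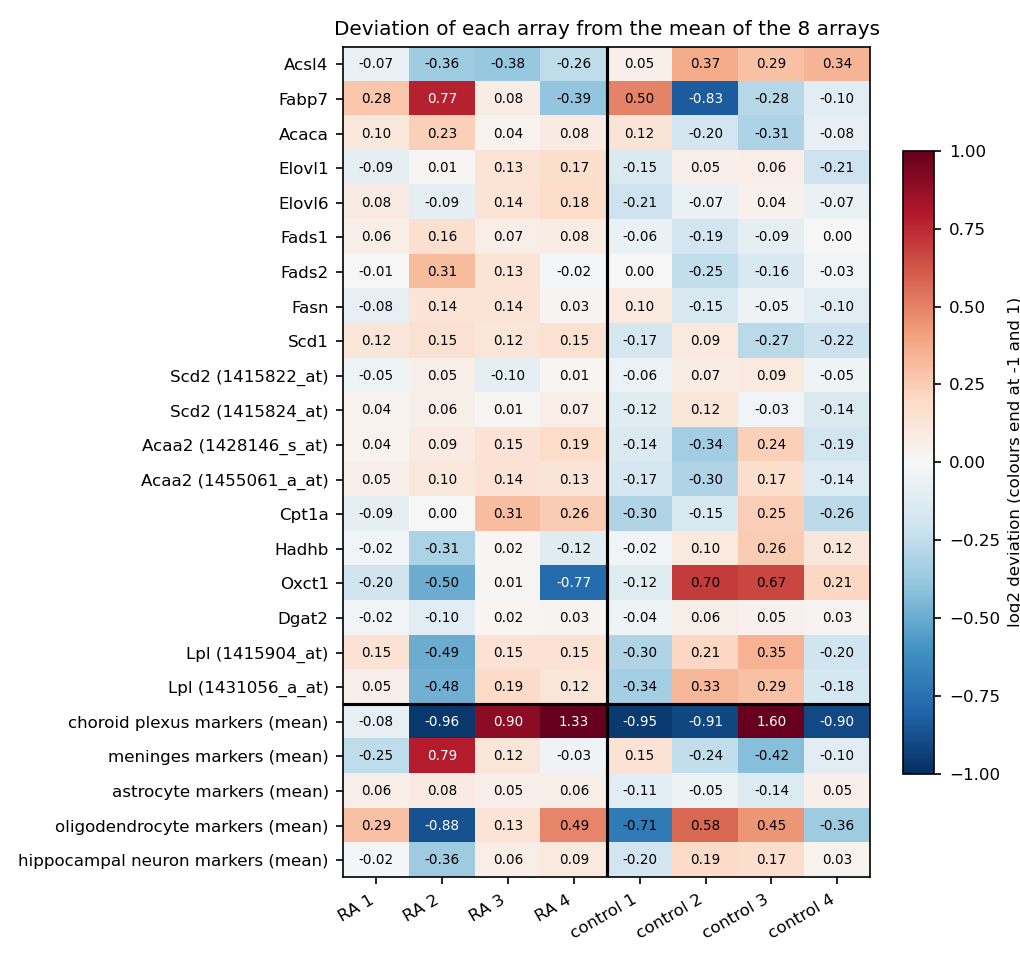
Deviation of each array from the mean of the 8 arrays (log2) for the 19 varying probe sets and, below the line, for the mean of 5 marker lists, with RA arrays left of control arrays. RA 2 lies 0.49 below the mean in the first Lpl probe set and 0.88 below it in the oligodendrocyte markers, and control 3 lies 0.25 above the mean in Cpt1a and 1.60 above it in the choroid plexus markers.

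The highest and lowest values were spread over the arrays. Among the control arrays, control 1 was the lowest in 9 of the 19 probe sets and the highest in 4, while control 3 was the highest in 8 and the lowest in 2. Among the RA arrays, RA 2 was the highest in 6 and the lowest in 5, and RA 4 was the highest in 6 and the lowest in 3. Control 1 was highest in Fabp7, Acaca, Fads2 and Fasn and lowest in Lpl, Oxct1, Hadhb and Cpt1a.

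Another 97 genes of the same pathways gave 188 probe sets for 89 genes, of which 21 varied (11.2%), in 15 genes. Of the 21, 2 were called higher and 2 lower, beside 10.8% and 6.89% of all varying probe sets, and 17 were higher on average under RA, beside 73.1%. These shares lie near those of all varying probe sets. Hadh, the hydroxyacyl-CoA dehydrogenase of short chains, was called higher from a probe set of the x_at type, whose probes may also bind other transcripts. Its log2 values were 8.15, 8.23, 8.28 and 8.09 in RA 1 to RA 4, against 7.96, 7.86, 7.94 and 8.08 in control 1 to control 4. The groups did not overlap, by a narrow margin between RA 4 and control 4, and the log2 difference was 0.23 (standard error 0.0588, adjusted p = 0.348 from limma). Mgll, the lipase of monoacylglycerols, had a pair of varying probe sets, and 1 was called higher (0.19, standard error 0.0751). In that one the log2 values were 8.74 to 8.98 in the RA group and 8.56 to 8.84 in the control group. The other was not called (log2 difference 0.05, standard error 0.0677). Insig2, which holds the Srebf proteins in the endoplasmic reticulum, was called lower, with log2 values of 7.05, 6.85, 6.95 and 6.99 in RA 1 to RA 4, against 7.02, 7.37, 7.46 and 7.30 in control 1 to control 4. Only control 1 lay among the RA arrays, and the log2 difference was -0.33 (standard error 0.0994, adjusted p = 0.386 from limma). Scp2, whose products include the thiolase of peroxisomal oxidation, was called lower as well (-0.44, standard error 0.169), with log2 values of 8.29 to 8.74 in the RA group and of 8.72 to 9.30 in the control group.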

How the data were processed

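The authors hybridised biotin-labelled cRNA from hippocampal total RNA to Affymetrix mouse genome arrays and summarised each probe set from the scanner data with FARMS in R. The deposited values are log2 summaries, 1 column per array, and were used without further scaling. The Methods name FARMS as the normalization, and no other step between arrays. Without the manufacturer's 64 control probe sets there were 45037, and 34945 of them name 1 gene, 932 several and 9160 none. Symbols of the platform annotation were updated through a table of mouse genes of GRCm38.p6, for 34741 probe sets by gene number. Only probe sets that name 1 gene were described. Arrays were grouped and numbered as labelled.

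The rank product of the Methods was coded in R 4.3.3 as the unpaired form, and values were permuted 100 times within each array. limma 3.58.1 gave log2 differences (RA minus control), their standard errors, and p-values adjusted by Benjamini-Hochberg over all probe sets. Both were tested on simulated data. Conditions to pass were set only for data in which all probe sets had the same spread, which the values used here do not have. The genes and lists were chosen with earlier results of these data known. All genes of the set are named, with values for those that vary. For varying probe sets of the set, every array is given where they were called or where the groups do not overlap. The same holds for those with an unadjusted limma p under 0.05. Values by array of Acaca, Fads2, Acaa2 and Lpl were added after they were seen. Of other pathway genes, those called are named, Hadh and Insig2 with every array and Mgll and Scp2 with the range of each group. Elovl7 was named after its values were seen. Alternatives were quantile normalization, subtraction of array medians, filters on low means and low spread, a replicate block, leaving out each array, 1 probe set per gene, a threshold of 0.01, limma, and the methods' t-test. Centring on the varying probe sets and 2 further permutation seeds were chosen after seeing the data. The comparison of protein sequences that had been planned was not run.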

Additional observations from a re-analysis of the deposited data

Results flagged for a closer look

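Of the 38 groups of 4 arrays examined (19 varying probe sets in each group), 1 held an array far from the others, where chance flags about 1 in 20. In the RA group, RA 2 had a log2 value of 8.30 for 1 probe set of Lpl, while the other RA arrays all had 8.94, so that the gap to the nearest array made up 0.993 of the range of the group. The second varying probe set of Lpl also had its lowest RA value in RA 2, at 6.83 against 7.36 to 7.50 in the other RA arrays. The cause was not tested.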

How the results depend on the processing

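Quantile normalization, subtraction of array medians and 2 further permutation seeds left the calls at 4 higher and 3 lower. The 4 higher calls became 0 with the filter on low means, among only the varying probe sets, with these also centred on their array median, and at a threshold of 0.01, and 2 with 1 probe set per gene. The 3 lower calls became 1 among only the varying probe sets, with or without centring (Oxct1), and 1 with 1 probe set per gene (Acsl4), where the varying probe sets of Oxct1 and Hadhb were left out in favour of a nearly constant one and so were not tested. When 1 array was left out, the higher calls numbered 0 to 7 and the lower calls 2 to 3, and none was called higher without any one of the RA arrays. In the whole table these fits called 11 to 949 probe sets higher and 129 to 317 lower. limma called 0 in either direction, and so did the methods' t-test after Benjamini-Hochberg adjustment. Unadjusted, the t-test called 9 higher and 5 lower, most of them nearly constant. In the whole table it called 1976 higher and 2119 lower among 45037 probe sets. The median log2 difference of the 19 varying probe sets was 0.09 to 0.16 without 1 array, and 0.07 with centring on the array median of varying probe sets. The log2 difference of Lpl ran from -0.13 to 0.13 in 1 probe set and from -0.18 to 0.09 in the other without 1 array, with a positive sign without control 2, control 3 or RA 2. After the 2 scalings limma called 28543 and 41443 probe sets, of which 28292 and 41093 were nearly constant, so its adjusted p-values there measure the scaling. With the replicate block, 1 probe set of the gene set was called higher (Scd1) and 2 lower (Acsl4 and Oxct1). In the whole table, the 407 higher and 259 lower calls became 71 and 210 with the block, 80 and 71 with 1 probe set per gene, 4 and 17 among only the varying probe sets, 43 and 187 with the filter on low means, and 26 and 156 at a threshold of 0.01. The labels name nothing but the number that same-numbered arrays share. The deviations of these arrays correlated at -0.122, -0.328, 0.448 and -0.393 for numbers 1 to 4. Differently numbered arrays were not compared, so these values cannot decide whether same-numbered arrays were paired. The number of arrays and the nearly constant values limit what these data can show.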

Other observations

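Elovl7, an elongase of saturated long chains, had 6 varying probe sets, more than any other gene of the pathways listed, and none was called. In the one with the largest difference, its log2 values were 6.65, 6.33, 6.88 and 7.11 in RA 1 to RA 4, against 6.30, 6.72, 7.22 and 6.20 in control 1 to control 4. Control 3 was the highest array and the groups overlapped fully, with a log2 difference of 0.13 (standard error 0.274). The 6 log2 differences ran from -0.03 to 0.13.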
